A study of Mus musculus with 9 samples.

Results

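Clozapine-treated mouse forebrain was set against untreated mouse forebrain over all genes measured on Affymetrix U74Av2 arrays, which read messenger RNA through sets of short oligonucleotide probes (probe sets). The arrays were chosen by their titles, 3 from clozapine-treated mice and 3 from untreated controls, together 6 of the 9 arrays in the study. The remaining 3 came from mice treated with haloperidol at 1.6 mg/kg/day for 4 weeks. These arrays entered the estimate of the spread and the filter on low signal. They also entered the mean level over all 9 arrays, values set against all other arrays, 1 fit with a block and 1 comparison between the drugs. All mice were C57BL males, an inbred laboratory strain, labelled as 4 weeks of age. Clozapine-treated mice drank water dosed with the drug at 12 mg/kg/day for 4 weeks. The labels relate this dose to the top of the human clinical range, and control mice drank water with no drug. Every mouse lived alone in its cage under a light-dark cycle, had 2 weeks to settle before treatment, and was killed by cervical dislocation at an hour not given in the sources used here. Each treatment was given to 10 mice, of which 3 were arrayed, 1 mouse per array without pooling. The titles and the series text place the tissue on the right side of the brain, while the tissue entry names the left hemisphere, so the side was not settled.

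Clozapine is an atypical antipsychotic that binds dopamine, serotonin, muscarinic acetylcholine, adrenergic and histamine receptors. Its receptors act through G proteins, cyclic AMP and calcium, and through these on transcription factors in neurons. Among the transcripts with a daily rhythm in the brain are those of the circadian clock, in which the activators Arntl (Bmal1) and Clock drive E-box genes such as Per1, Per2, Dbp, Bhlhe40 and Nr1d2. The period, cryptochrome and REV-ERB products then repress the activators, and Dbp and Nfil3 compete with opposite effect at the D-box, the element both of them bind.

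Values are log2 units as the authors deposited them, always listed in the order of replicates 1, 2 and 3, and a difference of 1 is a 2-fold ratio. Differences between groups are clozapine minus control with their standard error (SE, n = 3 per group) from limma, and levels of different genes are not compared, since each probe set has its own brightness. A difference rests on bulk tissue, where fewer cells of a type and less RNA per cell cannot be told apart. The array medians lay between 4.02 and 4.21 over all probe sets. Array control probes at the 3' end of Actb and Gapdh outread those at the 5' end by a margin that widens as labelled RNA leans to the 3' end, and this 3'-5' gap was 0.89, 1.13 and 1.14 in the clozapine arrays and 0.88, 1.46 and 1.73 in the controls. Control 3 stood apart at the wide end, with 396 probe sets over 1 log2 unit below the mean of controls 1 and 2 and 184 over 1 above it. Each of the 6 arrays correlated best with an array of another treatment, clozapine 1 with control 1 at 0.9937 (Pearson r over the probe sets tested) and control 3 with clozapine 3 at only 0.978. The median correlation was 0.982 between clozapine and control arrays, 0.984 within clozapine and 0.971 within the controls. Results are therefore given with and without control 3.

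No gene passed the test for clozapine against no treatment. Limma called 0 of 7453 probe sets at a Benjamini-Hochberg adjusted p of 0.05, a background of 0%, and the lowest adjusted p was 1. An unadjusted limma p under 0.05 was found for 70 probe sets, 0.939% of those tested, 33 above the controls (0.443%) and 37 below (0.496%), where 372.65 would be expected with no difference at all. The 3 clozapine arrays did not overlap the 3 controls in 256 probe sets (3.43%), all above in 95 (1.27%) and all below in 161 (2.16%). Taken per gene, with each gene read by its brightest probe set, 2828 of 5650 genes (50.1%) lay above the controls and 51 (0.903%) had an unadjusted p under 0.05. With 3 arrays a side, the smallest two-sided p that exact permutation allows is 0.1. Without control 3 the count at an unadjusted p under 0.05 was 196 probe sets (2.63%), 81 above (1.09%) and 115 below (1.54%), and 37 of the 70 were still among them, while all 70 kept their sign. Without control 1 it was 186, without control 2 it was 43 and without clozapine 2 it was 39, with 0 called by limma in each case. Of the 7453, 49.5% lay above the controls. With clozapine 1, control 1 and haloperidol 3, 3 arrays that correlated with each other, fitted as a block, the count was 138 (1.85%).

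**Figure D1:**
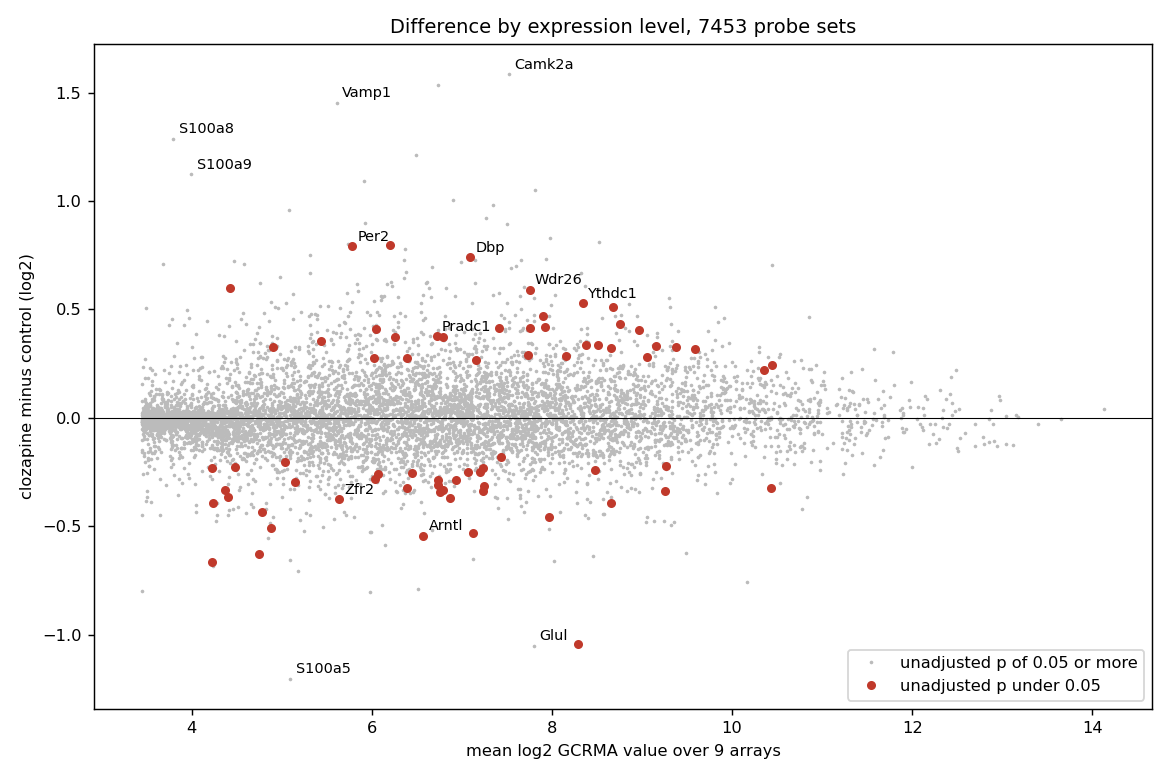
Each point is 1 of the 7453 probe sets tested, with its mean log2 GCRMA value over 9 arrays on the horizontal axis and clozapine minus control, in log2 units, on the vertical axis. Red marks the 70 with an unadjusted limma p under 0.05, none of which passed after adjustment. Of the 12 differences over 1 log2 unit, 11 are grey, such as Camk2a at 1.59 and S100a8 at 1.29, and 1 is red, an unnamed probe set at -1.04.

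The differences were small at all levels of expression. The median size of a difference was 0.078 log2 units, and 95% of probe sets lay within 0.34 of the controls. Split into 4 equal bins of the mean level, the dimmest bin (3.45 to 4.61) had a median difference of -0.01 with 39.5% of probe sets above the controls, and the brightest (7.82 to 14.13) had a median of 0.01 with 53.7% above. The unadjusted p fell under 0.05 for 1 probe set above and 6 below in the dimmest bin, and for 16 above and 7 below in the brightest. The 95% confidence interval of the difference stayed within a 2-fold change either way for 6788 probe sets, 91.1% of those tested, and within a 1.5-fold change for 66.6%. Where 903 genes had at least 2 tested probe sets, all of a gene's probe sets fell on the same side of the controls in 442 (48.9%).

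Some genes of the circadian clock were among those of lowest unadjusted p on each side, Dbp and Per2 above the controls and Arntl and Nfil3 below. Of 24 genes on the clock list 18 were on the array and 14 passed the filter on low signal, and 10 of these lay above the controls and 4 below, with a median of 0.18 log2 units. For 3 genes above (Dbp, Per2 and Bhlhe40) and 2 below (Arntl and Nfil3) the unadjusted limma p was under 0.05, beside 0.903% of the 5650 genes, and none passed after adjustment. The median over all tested probe sets was 0.00. Without control 3 the clock list's median was also 0.00 and 7 of 14 genes lay above, while these 5 genes kept their sign. For Dbp, Per2, Arntl and Nfil3, whose groups did not overlap, leaving out a single array could not change it.

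Dbp, a D-box activator whose transcript is among the most rhythmic in mammalian tissue, had the lowest unadjusted p of all named genes. It read 7.38, 7.26 and 7.29 in the clozapine arrays and 6.52, 6.79 and 6.39 in the controls. Every clozapine array lay above every control, and clozapine arrays were also close to each other. The difference was 0.74 ± 0.13 log2 units, a fold of 1.67 with a 95% confidence interval of 0.45 to 1.03 on the log2 scale (limma, unadjusted p = 0.000387). It was 0.65 without control 3. Tef, a relative of Dbp that binds the same element, read 8.61, 8.49 and 8.26 against 8.45, 8.38 and 8.01, and its groups overlapped at a difference of 0.18 ± 0.14.

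Per2, a repressor of its own activators, read 5.52, 5.97 and 6.50 with clozapine and 5.36, 5.06 and 5.19 in the controls. All clozapine arrays lay above the controls, but clozapine 1 by only 0.16 over control 1, whereas the means of replicates 2 and 3 lay 1.11 apart. The difference was 0.79 ± 0.24, a fold of 1.73 (limma, unadjusted p = 0.0109). Per1, the second period gene, read 7.28, 7.46 and 7.03 against 6.69, 7.08 and 6.95. Clozapine 3 fell inside the control range, and the difference of 0.35 ± 0.15 had an unadjusted limma p of 0.0541. Bhlhe40, a repressor that binds E-boxes, read 8.00, 7.97 and 8.11 against 7.41, 7.30 and 7.97. Here control 3 was level with clozapine 2, and the difference was 0.47 ± 0.19 with all controls and 0.67 without control 3. Nr1d2, which encodes the REV-ERB beta repressor, read 9.35, 8.91 and 8.67 against 8.80, 8.57 and 8.00, with overlapping groups and a difference of 0.52 ± 0.27.

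On the lower side, Arntl read 6.25, 6.41 and 6.35 with clozapine and 6.81, 6.59 and 7.25 in the controls. The groups did not overlap, and control 3 was the highest array. The difference was -0.54 ± 0.17 (limma, unadjusted p = 0.0141), and -0.36 without control 3. Its partner Clock read 7.05, 6.81 and 7.15 against 7.25, 7.24 and 6.82, which overlapped at -0.10 ± 0.14. Nfil3, the repressor at D-boxes, read 4.21, 4.22 and 4.04 against 4.46, 4.44 and 4.75, again with no overlap and with control 3 highest. Its difference was -0.39 ± 0.15 (limma, unadjusted p = 0.028) in a dim probe set, -0.30 without control 3, and a second, dimmer probe set that did not pass the filter gave 0.01.

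The remaining clock genes did not separate the groups. Cry1, a cryptochrome repressor, spread from 5.63 to 6.94 within the clozapine arrays alone, at a difference of -0.18 ± 0.41, and Cry2 lay at 0.15 ± 0.34. The casein kinase genes Csnk1e and Csnk1d, whose products mark the period proteins for decay, lay at 0.56 ± 0.40 and 0.13 ± 0.29, and Csnk1e fell to 0.16 without control 3, where it read 4.91 against 6.34 and 5.92 in the other controls. Rora, an activator of Arntl, lay at 0.17 ± 0.34. Without control 3, Cry2, Rora and Csnk1d changed sign to -0.20, -0.20 and -0.18. Below the filter, Npas2, Per3 and Timeless were dim in all 6 arrays. Nr1d1, the REV-ERB alpha gene, was also below it on average but read 4.56 in clozapine 2 and 5.07 in control 3, against at most 1.97 in the other arrays of these groups.

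**Figure D2:**
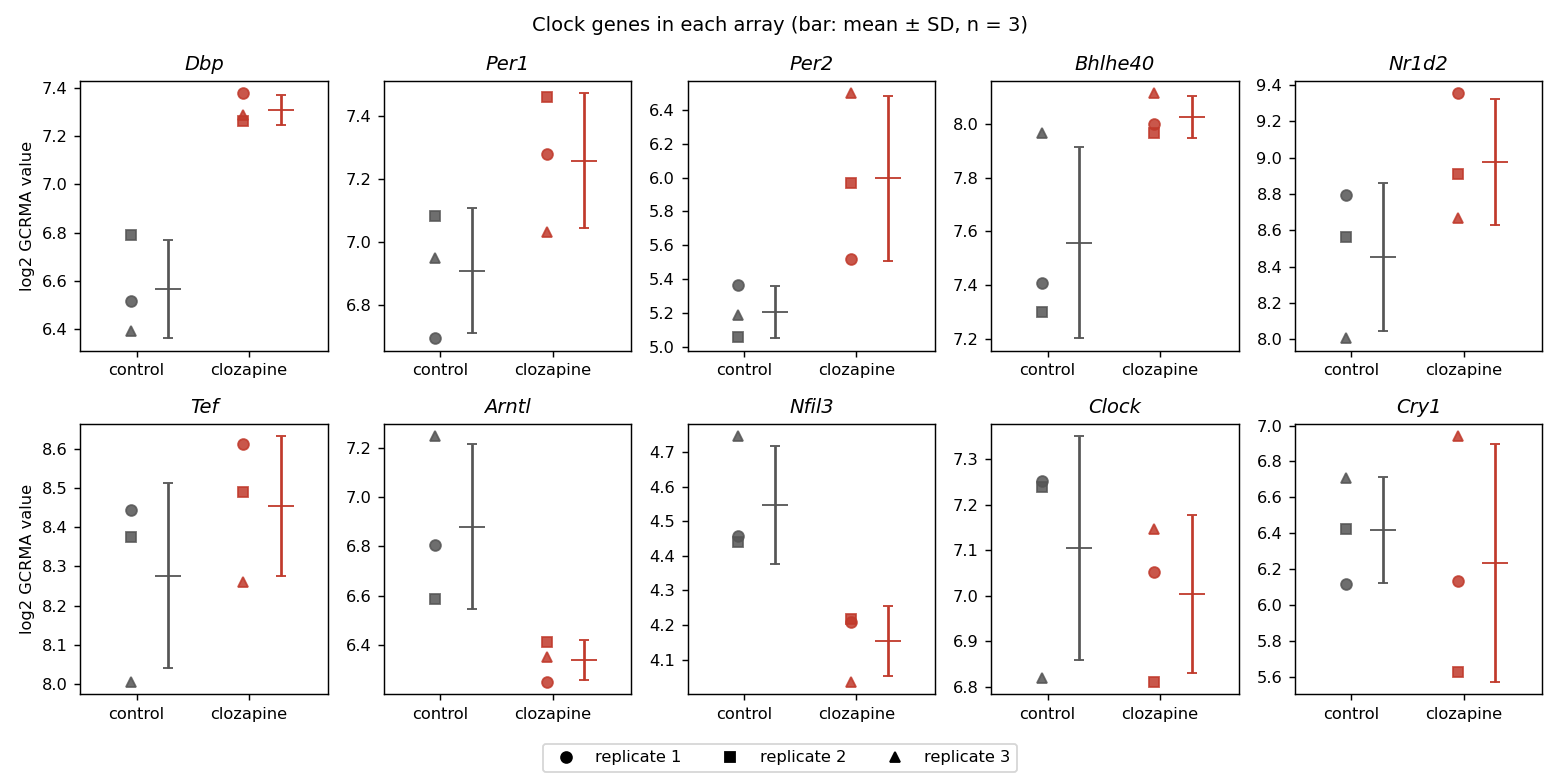
Log2 GCRMA values of 10 clock genes in the 3 control (grey) and 3 clozapine (red) arrays, with a marker shape for each replicate number and bars for the mean ± SD (n = 3). Dbp, Per2, Arntl and Nfil3 have no overlap between groups, while Clock and Cry1 overlap. Vertical axes differ between genes and do not start at 0.

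To set sequence beside these values, the 250 bases before the start sites of Dbp, Per1, Arntl and Nfil3 were read from RefSeq (GRCm38.p6): Dbp and Per1 as targets of E-boxes, Arntl and Nfil3 as targets of ROR and REV-ERB receptors. Dbp, Arntl and Nfil3 separated the groups and Per1 did not. The letters searched on both strands were CACGTG (the E-box), CACGTT (a variant E-box) and AGGTCA (the core of the ROR and REV-ERB element), and capitals mark a match to any of them. Per1 has 2 windows. The first, at chr11:69098699-69098948 on the plus strand, holds CACGTG 166 bases before the start and TGACCT, the reverse complement of AGGTCA, 137 bases before it, and the second, at chr11:69099902-69100151, holds none of these letters. The Nfil3 window, at chr13:52981040-52981289 on the minus strand, holds TGACCT 12 bases before the start. The Dbp window, at chr7:45704997-45705246 on the plus strand, holds no match, nor do the overlapping pair of Arntl windows, of which the first is at chr7:113207215-113207464 on the plus strand. No match says only that these letters are not in those 250 bases. The first window of each gene is shown 5' to 3' on the strand of its gene:
Dbp: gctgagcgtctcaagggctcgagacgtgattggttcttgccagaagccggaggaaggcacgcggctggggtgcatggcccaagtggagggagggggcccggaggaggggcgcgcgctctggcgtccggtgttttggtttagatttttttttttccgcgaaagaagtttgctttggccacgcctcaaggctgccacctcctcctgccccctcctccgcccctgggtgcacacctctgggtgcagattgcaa
Per1: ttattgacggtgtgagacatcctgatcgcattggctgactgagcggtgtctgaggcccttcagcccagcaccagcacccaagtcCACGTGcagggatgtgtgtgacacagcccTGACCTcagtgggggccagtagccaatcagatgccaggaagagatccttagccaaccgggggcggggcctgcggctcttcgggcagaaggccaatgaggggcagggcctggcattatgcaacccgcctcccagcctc
Arntl: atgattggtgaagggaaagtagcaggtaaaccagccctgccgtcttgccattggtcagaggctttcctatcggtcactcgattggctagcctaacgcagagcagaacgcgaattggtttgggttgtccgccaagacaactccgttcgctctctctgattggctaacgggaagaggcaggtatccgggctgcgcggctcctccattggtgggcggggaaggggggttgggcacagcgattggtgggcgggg
Nfil3: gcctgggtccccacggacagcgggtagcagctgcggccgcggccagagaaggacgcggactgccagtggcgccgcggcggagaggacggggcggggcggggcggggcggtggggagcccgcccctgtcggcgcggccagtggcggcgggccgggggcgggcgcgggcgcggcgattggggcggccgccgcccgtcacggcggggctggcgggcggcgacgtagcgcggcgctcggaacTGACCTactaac
Of 14 tested clock genes 11 were matched, with 19 windows, of which 4 held CACGTG (in Cry1, Per1 and Tef), 2 held CACGTT and 4 held AGGTCA (in Clock, Nfil3, Nr1d2 and Per1). Over all 32851 windows of that length the shares were 6.02%, 3.85% and 14%. Per2, Bhlhe40 and Csnk1d had no entry. A match describes the letters only.

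Outside the clock, genes of the lowest unadjusted p on the upper side spanned RNA handling, protein turnover and trafficking. Pradc1, a secreted protein with a protease-associated domain, read 6.83, 6.71 and 6.77 with clozapine and 6.35, 6.43 and 6.40 in the controls. Its groups were narrow and apart, at 0.38 ± 0.08 (limma, unadjusted p = 0.0014). Ythdc1, which reads methylated adenosine in nuclear RNA, read 8.47, 8.37 and 8.77 against 7.78, 8.23 and 8.01, a difference of 0.53 ± 0.14. Elavl2, a neuronal RNA-binding protein of the Hu family, read 8.33, 8.56 and 8.49 against 7.99, 8.17 and 8.21, at 0.34 ± 0.09. For both, the lowest clozapine array lay above the highest control. The long non-coding RNA Tug1 lay 0.29 ± 0.07 above, in arrays from 8.20 to 8.29 against 7.89 to 8.01.

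Psmd6, part of the cap that feeds substrates to the proteasome, read 8.76, 8.72 and 8.61 against 8.41, 8.24 and 8.47, a difference of 0.32 ± 0.09. Wdr26, a subunit of a ubiquitin ligase complex, read 7.98, 7.98 and 7.85 against 7.56, 6.97 and 7.50. Control 2 was its lowest array, the difference was 0.59 ± 0.20, and its other probe sets gave 0.11, 0.34 and 0.35. Lxn, an inhibitor of carboxypeptidases, lay 0.41 ± 0.12 above, and 0.51 without control 3. Txnip, which binds and inhibits thioredoxin, read 5.18, 4.98 and 5.05 against 4.93, 4.74 and 4.55, with no overlap but a narrow margin between clozapine 2 and control 1. Its difference was 0.33 ± 0.11. Cnih1, a cargo receptor of the early secretory pathway, and Mrps15, of the mitochondrial ribosome, lay 0.33 ± 0.11 and 0.37 ± 0.13 above, also without overlap.

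Below the controls, the lowest unadjusted p belonged to Zfr2, a zinc finger protein thought to bind RNA. It read 5.49, 5.54 and 5.61 with clozapine and 5.82, 5.93 and 6.01 in the controls, at -0.37 ± 0.10 (limma, unadjusted p = 0.00449). Ly6e, a membrane-anchored protein of the Ly6 family, was bright, at 10.38, 10.34 and 10.44 against 10.71, 10.88 and 10.55. Both genes separated the groups, and Ly6e lay at -0.32 ± 0.10 in this probe set and -0.08 in a second. Inpp5b, an inositol phosphatase, lay at -0.32 ± 0.10 and, in its second probe set, at -0.14. Dennd5a, an activator of Rab proteins in membrane traffic, lay at -0.34 ± 0.12 and Nt5dc3 at -0.31 ± 0.10. Pla2g4f, a cytosolic phospholipase, lay at -0.33 ± 0.12 in a dim probe set of 4.29 to 4.38 against 4.56 to 4.82. Cyhr1 lay at -0.29 ± 0.10, while another of its probe sets gave 0.18, with control 3 as its lowest array.

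The other genes of the lower side act at the vessel wall, in the nucleolus and in proteolysis. Col4a2, a collagen chain of the vascular basement membrane, read 6.68, 6.62 and 6.70 against 7.06, 7.11 and 6.83, at -0.33 ± 0.12. Mybbp1a, a nucleolar protein, lay at -0.31 ± 0.12 in its brightest probe set and -0.08 in another. Plat, the tissue plasminogen activator, had the narrowest arrays of these genes, at 7.30, 7.39 and 7.29 against 7.53, 7.51 and 7.49, and differed by -0.18 ± 0.07. All 12 genes below and all 12 above kept their sign in each alternative analysis that tested them, and their adjusted p in limma was 1. In each of these genes the groups did not overlap, so leaving out any single array could not change the sign.

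**Figure D3:**
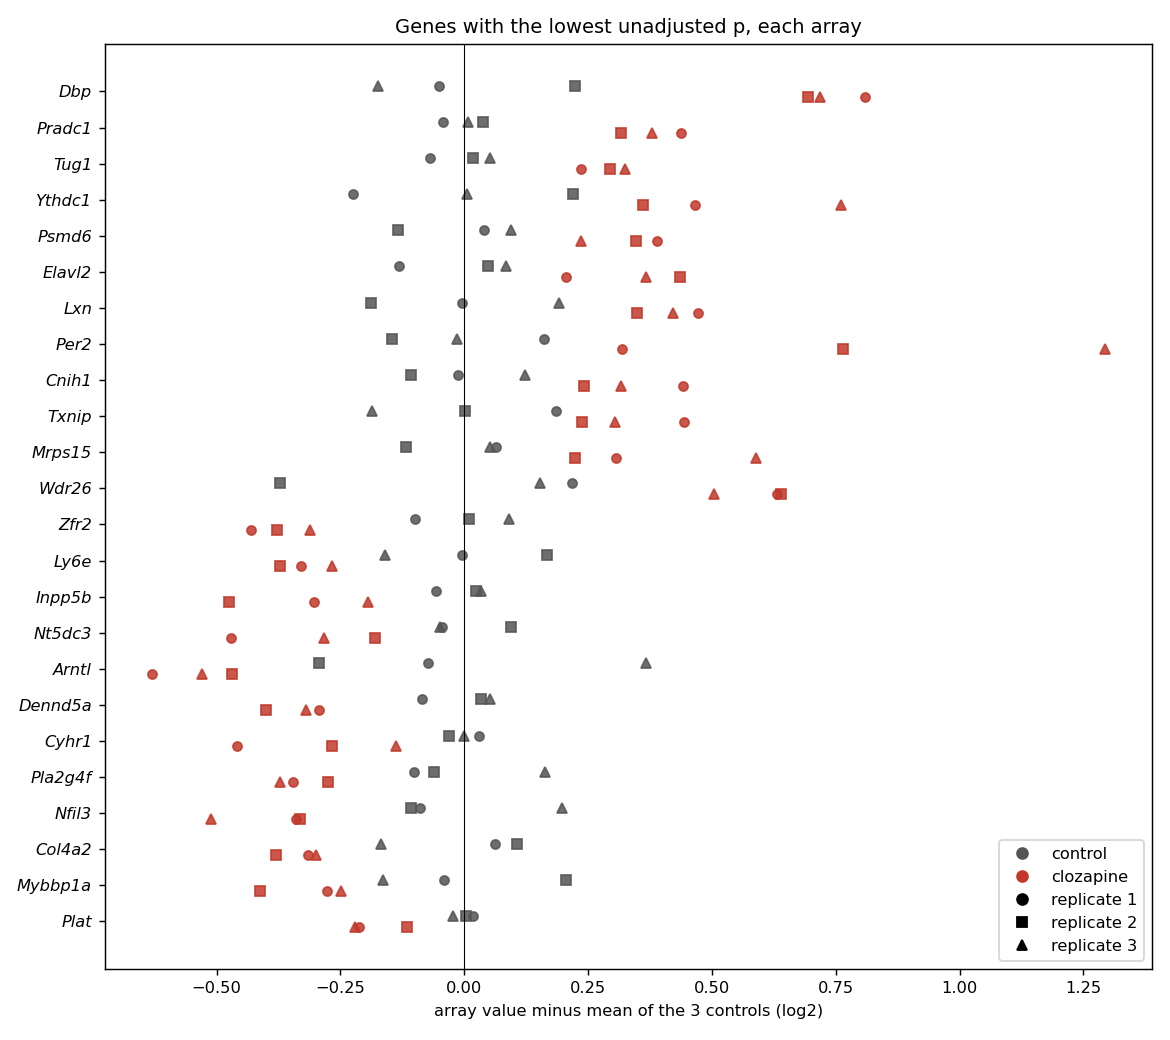
The 12 genes above and 12 below the controls with the lowest unadjusted limma p, each array drawn as its log2 value minus the mean of the 3 controls (grey, control; red, clozapine; shapes, replicate numbers). The genes were picked by p, so the separation of colours is a property of the choice; the spread of the red points shows Per2 as the most uneven, from 5.52 to 6.50 before the controls' mean is taken off.

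Chosen by size of difference among genes whose groups did not overlap, a further set was named. Avp, the vasopressin precursor made in the hypothalamus, read 7.09, 6.22 and 6.25 against 6.20, 5.99 and 5.91. Clozapine 1 stood alone, the other 2 clozapine arrays lay just over control 1, and the difference was 0.48 ± 0.25. Zfp276, a zinc finger gene, lay 0.60 ± 0.23 above and 0.40 without control 3, its lowest array at 3.65. Also above were 2310061I04Rik at 0.51 ± 0.21 and Ccdc88a, an actin-binding protein of migrating neurons, at 0.42 ± 0.17, with a second Ccdc88a probe set at -0.00. Ryk, a Wnt receptor, read 5.18, 5.04 and 5.05 against 5.34, 5.22 and 6.05, so that its difference of -0.45 ± 0.21 was -0.19 without control 3. Sh3bp2, an adaptor protein, lay at -0.44 ± 0.22, Npepps, a cytosolic aminopeptidase, at -0.39 ± 0.18 and Snx12, a sorting nexin, at -0.40 ± 0.23, the last with a second probe set at 0.05. Mgst2, a microsomal glutathione transferase, lay at -0.43 ± 0.25 with control 2 at 4.97 and the other 2 controls at 4.11 and 3.99.

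The largest differences were sorted by the array whose removal shrank them most. A difference over 1 log2 unit was found in 12 probe sets, of which 9 shrank most when control 3 was left out, 2 without clozapine 1 and 1 without clozapine 2. Every difference has such an array, so this count alone does not show that a single array made it. In 1 of the 12, a probe set with no single gene name, the groups did not overlap. It read 7.01, 7.69 and 7.66 against 8.17, 8.13 and 9.18, at -1.04 ± 0.38 (limma, unadjusted p = 0.0247) and -0.70 without control 3. Camk2a, the alpha subunit of the kinase that decodes synaptic calcium, read 9.42, 7.45 and 7.44 against 8.99, 6.68 and 3.87. Its difference of 1.59 ± 1.16 was 0.26 without control 3, and a second probe set behaved alike, at 1.54. Vamp1, a vesicle fusion protein, lay at 1.45 ± 0.97 with control 3 at 2.05. A second Vamp1 probe set lay at -0.09, with control 3 at 4.86. Nfix, a transcription factor of neural progenitors, lay at 1.21 ± 0.79 with control 3 at 3.83. Glul, the glutamine synthetase of astrocytes, ran the other way, with control 3 at 10.31 and the remaining 5 arrays between 6.72 and 8.54. Atp6v0a1, a proton pump subunit, and Timp2, a protease inhibitor, went from 1.05 and 1.01 to -0.37 and -0.31 without that array. The 3'-5' gap was widest in control 3, and its part in these values was not tested.

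Receptors bound by clozapine mostly fell below the filter on low signal. Of 31 listed, 19 were on the array and only 4 passed the filter: Chrm1, Drd2, Htr2c and Htr2b. The other 15, among them Drd3, Drd4, Htr1a, Htr7, Chrm4, Adra1b and Hrh1, stayed below it. Chrm1, the main muscarinic receptor of cortex and hippocampus, read 6.69, 6.14 and 6.03 against 6.24, 5.64 and 4.29. Control 3 was the lowest array and the groups overlapped, and the difference of 0.90 ± 0.45 was 0.35 without it. Drd2, the dopamine receptor that antipsychotics block, read 5.52, 5.34 and 5.31 against 5.36, 5.37 and 4.81, at 0.21 ± 0.18 with a 95% confidence interval of -0.20 to 0.62. Without control 3 it was 0.02. Htr2c, a serotonin receptor, lay at 0.27 ± 0.34 (-0.52 to 1.05), and Htr2b, close to the filter value, at -0.00 ± 0.09.

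Immediate early genes, which neurons switch on within minutes of activity, lay above the controls for 12 of 16 genes (median 0.09). Without control 3, 9 of 16 lay above (median 0.11). With all controls no gene of the list had an unadjusted limma p under 0.05, beside 0.903% of the 5650 genes. Fos read 9.26, 9.08 and 9.83 against 8.98, 9.14 and 9.55, and Egr1 10.29, 10.47 and 10.34 against 10.30, 10.31 and 10.37. Both overlapped, at 0.17 ± 0.29 and 0.04 ± 0.10. Nr4a2, an orphan nuclear receptor, read 6.92, 6.31 and 5.87 against 6.09, 5.86 and 5.33, a difference of 0.61 ± 0.33 that was 0.40 without control 3. Sgk1, a kinase that also answers to glucocorticoids, lay 0.40 ± 0.24 above, with clozapine 1 level with the controls and clozapine 3 highest at 9.56. Of 15 glucocorticoid-responsive genes tested, which share members such as Per1 with other lists, 8 lay above and 7 below, or 12 above without control 3, and Fkbp5, a classic target, lay at 0.17 ± 0.09.

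Striatal projection neuron genes showed no common shift, at 3 of 6 above and a median of -0.05, or -0.21 without control 3. Penk, the enkephalin precursor, read 11.39, 11.26 and 11.46 with clozapine against 11.63, 11.56 and 11.57, all below the controls at -0.22 ± 0.10 (limma, unadjusted p = 0.0652), and a second probe set gave -0.32 with overlapping groups. Tac1, the substance P precursor, and Pdyn, the dynorphin precursor, lay at 0.06 ± 0.10 and 0.02 ± 0.07. Between clozapine and haloperidol, limma called 0 of 7453 probe sets (0%), with 271 (3.64%) at an unadjusted p under 0.05 and a lowest adjusted p of 0.915. Among inhibitory genes, the vesicular GABA transporter Slc32a1 read 9.70, 9.45 and 9.67 against 9.77, 9.91 and 9.80. It lay below all controls at -0.22 ± 0.10 (limma, unadjusted p = 0.0646). So did Gad2, a GABA-making enzyme, at -0.19 ± 0.12 (limma, unadjusted p = 0.144) and -0.06 without control 3. Over all 5650 genes, 2.27% lay below the controls without overlap. Gad1, the other GABA-making enzyme, lay at 0.09 ± 0.12. The list of GABA genes as a whole had 6 of 10 genes above with a median of 0.06, or -0.02 without control 3.

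Lists of synaptic and general neuronal genes had positive medians that were near or below 0 without control 3. Of 21 synaptic vesicle genes 18 lay above the controls (median 0.23), and 13 of 21 without control 3 (median 0.03). Their mean log2 value over the 23 genes on the array was 8.66, 8.65 and 8.25 in the clozapine arrays and 8.56, 8.36 and 7.90 in the controls. Control 3 was lowest, below clozapine 3, and the other arrays of both groups shared a range. Syt1, the calcium sensor of vesicle release, spanned 8.57 to 10.98 within the controls and lay at 0.71 ± 0.70, or 0.00 without control 3. Snap25, a core fusion protein, was even across arrays at 0.01 ± 0.12 (95% confidence interval -0.28 to 0.30). Neuron markers went from a median of 0.22 (7 of 8 above) to -0.04 without control 3, and ionotropic glutamate receptors from 0.09 (5 of 8) to -0.06. No member of these 3 lists had an unadjusted limma p under 0.05, beside 0.903% of the 5650 genes. Genes of interneuron peptides and calcium-binding proteins lay above for 4 of 10 (median -0.05, and -0.10 with 2 of 10 above without control 3).

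**Figure D4:**
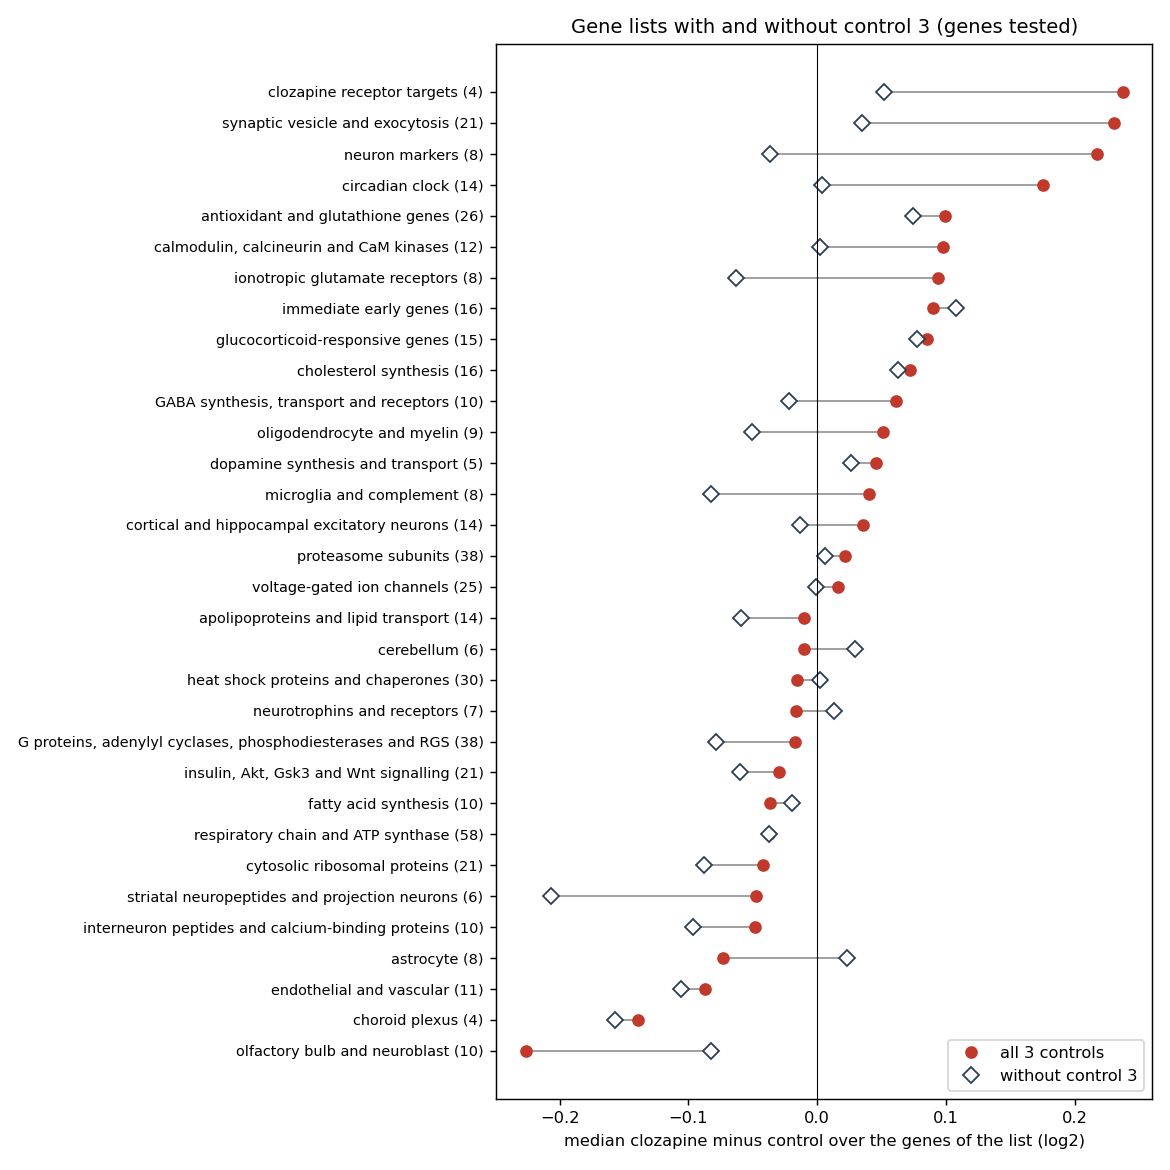
Median of clozapine minus control (log2) over the tested genes of each list with at least 4 such genes, whose number is in brackets, with all 3 controls (red) and without control 3 (open). Synaptic vesicle genes move from 0.23 to 0.03 and neuron markers from 0.22 to -0.04, while antioxidant genes stay at 0.10 and 0.07.

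Lipid synthesis genes, which antipsychotics are known to raise in cultured cells, lay close to the controls. Cholesterol genes were above for 12 of 16 (median 0.07, and 0.06 without control 3), and each of the 16 had overlapping groups. Over all 5650 genes, 1.47% lay above the controls without overlap and 2.27% below. Srebf1, a transcription factor for lipid genes, read 6.56, 6.23 and 6.17 against 5.87, 6.31 and 5.99, at 0.26 ± 0.16. Fdps, an enzyme of the mevalonate pathway, lay at 0.21 ± 0.14 and Msmo1, a later sterol enzyme, at 0.23 ± 0.17. Hmgcs1, which starts the pathway, lay at -0.03 ± 0.14 and Sqle at 0.06 ± 0.09, with 95% confidence intervals of -0.34 to 0.29 and -0.14 to 0.27. Fatty acid genes lay below in 9 of 10 by a median of -0.04, and without control 3 the median was -0.02 with 4 of 10 above, while Fasn, Acly and Scd1 were at -0.00, -0.00 and -0.06.

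Antioxidant and glutathione genes were above the controls for 21 of 26 genes (median 0.10), and for 18 of 26 without control 3 (median 0.07). Txnip was the member at an unadjusted limma p under 0.05, beside 0.903% of the 5650 genes. For 3 members all clozapine arrays lay above all controls, beside 1.47% of the 5650. Hmox2, the constitutive heme oxygenase, read 5.67, 5.55 and 5.48 against 5.37, 5.43 and 5.21. Its groups parted by a small margin at 0.23 ± 0.12. Gstm5, a glutathione transferase, read 10.02, 9.91 and 9.92 against 9.86, 9.68 and 9.91 and lay at 0.14 ± 0.12. The inducible Nqo1, Gclc and Gclm lay at -0.05 ± 0.09, 0.04 ± 0.09 and 0.00 ± 0.23.

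The large multi-subunit machines lay near 0 in the median. Respiratory chain and ATP synthase genes lay above in 19 of 58 cases at a median of -0.04 (15 of 58 at the same median without control 3), cytosolic ribosomal protein genes in 7 of 21 at -0.04 (4 of 21 at -0.09 without control 3), and heat shock proteins and chaperones in 13 of 30 at -0.02. Proteasome subunits were split, 21 of 38 above with a median of 0.02. Psmd6 and Psma6 were the 2 of 38 subunits whose clozapine arrays all lay above the controls, beside 1.47% of the 5650 genes, with Psma6 at 9.89, 9.87 and 10.02 against 9.65, 9.72 and 9.69. That difference was 0.24 ± 0.11 and was the same without control 3.

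Markers of glia and vessels were checked as a measure of tissue make-up. Neuronal Snap25, oligodendrocyte Mbp and astrocyte Gja1 and Aqp4 were bright in all 6 arrays. Other markers of brain cells were below the filter: oligodendrocyte Cnp, microglial Cx3cr1 and Aif1, endothelial Kdr and choroid plexus Aqp1. Pituitary Gh, Pomc, Cga and Tshb were also below the filter, while pituitary Prl, at 3.38 to 3.84, lay near it. Of the cerebellar markers, Cbln1 and Gabra6 were below the filter, whereas Zic1, which olfactory bulb and other forebrain regions also express, read 9.33 to 10.50, and Pcp2 (7.27 to 7.45), Pvalb (6.57 to 7.16), also of cortical interneurons, and Neurod1 (5.17 to 5.69) passed it. Myelin genes lay above in 6 of 9 cases (median 0.05, and -0.05 without control 3), microglial genes in 5 of 8 (0.04, and -0.08) and astrocyte genes in 1 of 8 (-0.07, and 0.02 without control 3). Cldn5, the tight junction protein of brain endothelium, read 6.81, 5.67 and 5.997 against 7.24, 7.29 and 6.32. Clozapine 1 lay inside the control range, and the difference was -0.79 ± 0.34 (limma, unadjusted p = 0.0505) with all controls and -1.10 without control 3. Of the 11 endothelial genes tested, 5 lay above and 6 below, from -0.79 to 0.20, at a median of -0.09. Without control 3, 3 of 11 lay above at a median of -0.11. Flt1 lay at -0.10 ± 0.08, Pecam1 at -0.17 ± 0.18 and Tie1 at -0.19 ± 0.12. Tek, another endothelial marker, read 4.71, 4.60 and 5.04 against 4.91, 4.80 and 4.51, with overlapping groups. Of the 11 genes, 1 lay above the controls without overlap and 0 below, beside 1.47% and 2.27% of the 5650 genes.

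Signalling lists had medians close to 0. Calmodulin, calcineurin and CaM kinase genes lay above for 9 of 12 (median 0.10, and 0.00 without control 3), with the calcineurin catalytic subunit Ppp3ca at 11.51, 12.10 and 12.03 against 11.42, 11.65 and 11.67, overlapping at 0.30 ± 0.21. G protein, adenylyl cyclase, phosphodiesterase and RGS genes lay above for 17 of 38 (median -0.02, and -0.08), and voltage-gated ion channel genes for 15 of 25 (0.02, and -0.00). Kcnj9, a potassium channel subunit opened by G proteins, read 9.22, 8.90 and 9.45 against 9.95, 9.99 and 9.09. Control 3 lay among the clozapine arrays, and the difference was -0.49 ± 0.27, or -0.78 without it, while a second probe set gave 0.11. Insulin, Akt, Gsk3 and Wnt genes lay above for 9 of 21 (median -0.03), with Dvl2, a carrier of Wnt signals, at -0.29 ± 0.18, and neurotrophin genes for 3 of 7 (-0.02).

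For olfactory bulb and neuroblast genes the clozapine mean was under the control mean in 10 of 10 (median -0.23), and in 7 of 10 without control 3 (median -0.08). Eomes, a transcription factor of bulb projection neurons, read 5.17, 3.79 and 4.06 with clozapine and 3.76, 5.56 and 5.36 in the controls. Dcx, of migrating neuroblasts, read 6.27, 5.23 and 5.31 against 5.86, 6.51 and 6.02. Each group held high and low arrays for Eomes: clozapine 1 and controls 2 and 3 were high, clozapine 2 and 3 and control 1 low. S100a5, found in olfactory neurons and bulb and named after its values were seen, split the same arrays more widely, at 6.49, 2.89 and 2.70 against 2.74, 5.97 and 6.98. Relative to the mean of the 3 controls, the median of the list was 0.17, -0.70 and -0.43 in the clozapine arrays. In the controls it was -0.58, 0.35 and 0.32. The groups overlapped at both ends, and the mean over the 12 genes on the array ranged from 4.66 to 5.31 with clozapine and from 4.61 to 5.45 without. How much bulb each dissected hemisphere held was not measured.

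Clozapine 1 alone read high for some genes of neutrophils, a type of white blood cell, and these genes were named after their values were seen. S100a8 read 7.57 in that array against at most 3.79 in the other 8 arrays of the study, and S100a9 read 7.07 against at most 3.77. Their differences of 1.29 ± 1.004 and 1.12 ± 0.80 turned into -0.12 and -0.00 without clozapine 1. Of 13 neutrophil genes on the array 4 were over 1 log2 unit higher there than in every other array, and the other 9, with Mpo, Elane and Ltf among them, were not. The hemoglobin genes Hba-a1 and Hbb-b2 were also highest in clozapine 1, at 10.56 against at most 10.17 and at 8.23 against at most 7.80. Among the clozapine arrays, clozapine 1 was the lowest for Per2 and the highest for Dbp.

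**Figure D5:**
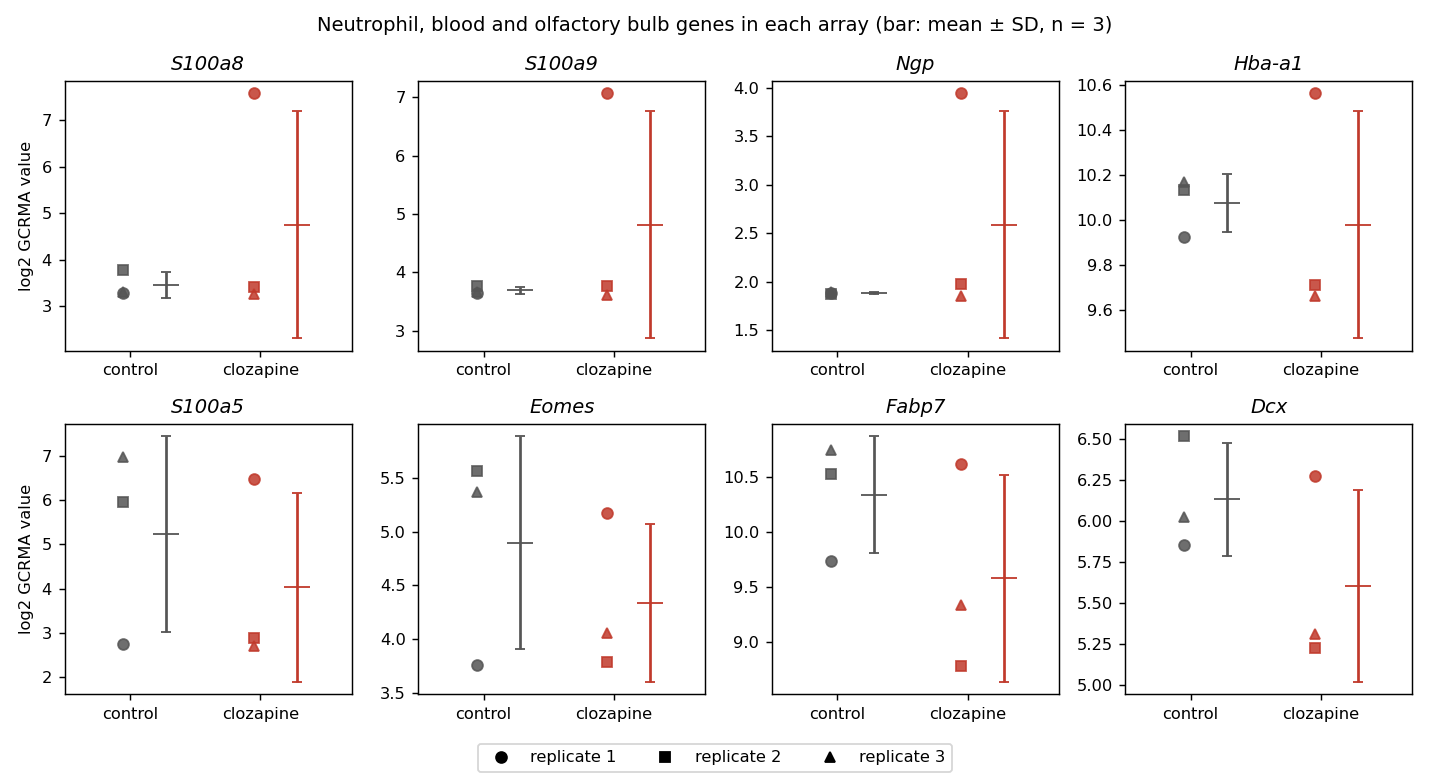
Log2 GCRMA values of neutrophil and blood genes (upper) and olfactory bulb and neuroblast genes (lower) in each control (grey) and clozapine (red) array, with the mean ± SD (n = 3) beside them. Clozapine 1 is alone at the top for S100a8 (7.57) and S100a9 (7.07), and for S100a5 clozapine 1 (6.49) lies with controls 2 and 3. Vertical axes differ between genes and do not start at 0.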

How the data were processed

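RNA from 1 forebrain sample per mouse was measured on 9 arrays, 3 per treatment. The values are log2 probe set values that the authors deposited, made with GCRMA per the submitters' processing notes, which models background by probe sequence, puts arrays on a shared distribution and condenses each set's probes into 1 value; its version is not given in the sources used here. GCRMA draws dim probe sets to a floor, so small differences there may be understated. The number of arrays limits the precision.

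Of 12488 probe sets, 66 array controls were left out. A probe set was tested if its mean over 9 arrays passed the 40th percentile, 3.45, which left 7453. Symbols came from the platform annotation, updated to RefSeq GRCm38.p6: 10833 of 12422 probe sets had 1 symbol, 396 several and 1193 none, and the last 2 kinds are not named. A gene is its probe set with the highest mean. Limma 3.58.1 (R 4.3.3) fitted 1 mean per treatment to all 9 arrays (6 residual degrees of freedom, median SE 0.153), with two-sided tests and Benjamini-Hochberg adjustment over 7453 probe sets at 0.05. The model was also run on simulated data with independent noise in each array. Those data held no correlated sets of arrays, so that run does not show how the test behaves on the arrays here.

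Groups and replicate numbers come from the titles. The comparison, its members and the 35 gene lists (840 genes, 493 tested) were chosen with earlier results of these data known. Genes named were the 12 above and 12 below with the lowest unadjusted p, the 8 above and 8 below with the largest difference without overlap, the 2 with the lowest p in each list, and all tested clock genes and clozapine receptors; others named are the best known members of a list or were chosen after their values were seen. Alternatives covered the filter, a floor, scaling, the variance prior, array weights, the arrays fitted, blocks, the threshold, probe set suffixes and the removal of single arrays; 2 block fits, on sets of arrays read from their correlations, were added after seeing the data.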

Additional observations from a re-analysis of the deposited data

Results flagged for a closer look

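Among probe sets that entered no test, 5 had a single clozapine array over 1 log2 unit above the highest control. Ngp, a neutrophil granule protein, read 3.94 in clozapine 1, 2.05 above the highest control, and Camp, an antimicrobial peptide of the same cells, read 2.86 there, 1.06 above. A probe set with no single gene name in the annotation used was 1.27 above, also in clozapine 1. Clozapine 2 was high for antisense control probe sets of the array, by 2.17 for the 5' end of Gapdh, at 8.52, and by 1.2 for the middle of Actb. The cause of these values was not tested.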

How the results depend on the processing

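Limma called 0 probe sets for clozapine against the controls in every alternative run, including a threshold of 0.10, and the lowest adjusted p was 0.246, with array weights. The count of 70 at an unadjusted p under 0.05 was 106 with no filter, 36 with the filter at the 60th percentile, 138 with clozapine 1, control 1 and haloperidol 3 as a block, 926 with array weights, of which control 2 took 13.59 against 0.33 to 1.21 for the others, and, with 2 blocks added after seeing the data, 203 with 3 array sets as a block and 729 with those sets and control 3 left out. It ran from 39 to 196 with single arrays left out. The cause was not tested. With arrays centred on their medians, 19 lay above and 43 below, and after quantile normalization 31 and 66, against 33 and 37 as deposited. The replicate block gave 60. Same-numbered clozapine and control arrays had residual correlations of 0.70, -0.23 and 0.37, and 5 of 9 arrays correlated best with their own number, so the numbers were not taken to pair the arrays.

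Of 2295 gene values under alternatives, 33 changed sign, in 16 of the 106 genes named by rule and in none of the 24 with the lowest p. The groups of those 24 did not overlap, so leaving out a single array could not change their sign. With array weights, Pts was -0.0098, Ctss -0.0052 and Ttr 0.0898. With 3 array sets and control 3 left out, Qdpr was -0.0355, Gria2 -0.0204, Sst -0.0588, Syt1 -0.26, Prl 0.61, Cry1 0.28, Cry2 -0.17, Rora -0.0698 and Csnk1d -0.18. With single arrays left out, the ranges that crossed 0 were -0.0382 to 0.174 for Qdpr, -0.0486 to 0.134 for Pts, -0.211 to 0.00899 for Prl, -0.17 to 0.31 for Hbb-b2, -0.0585 to 0.0279 for Htr2b, -0.20 to 0.47 for Cry2, -0.18 to 0.40 for Csnk1d, -0.387 to 0.0623 for Hba-a1, -0.53 to 0.12 for Cry1, -0.302 to 0.0438 for Ttr, -0.12 to 0.49 for Sst, -0.275 to 0.00995 for Zic2 and -0.20 to 0.50 for Rora.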

Other observations

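A few bright genes differed widely between arrays of the same treatment and were picked out after their values were seen. Sod1, the cytosolic superoxide dismutase, read 9.63, 10.77 and 7.48 in clozapine replicates 1 to 3 and 9.06, 7.48 and 10.67 in control replicates 1 to 3, which gave 0.23 ± 1.21 (SE, n = 3 per group). Cplx2, a clamp of synaptic vesicle fusion, read 6.26, 8.60 and 4.50 against 5.66, 4.10 and 8.68. In both, clozapine 2 and control 3 were the highest arrays, and clozapine 3 and control 2 were the lowest. Nr1d1, below the filter, was high in the same pair, clozapine 2 and control 3. The cause was not tested.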
